A study of Arabidopsis thaliana with 53 samples.

Results

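Chromatin accessibility was described at 8 Arabidopsis thaliana genes of the cold and drought response. They were the 3 tandem CBF genes on chromosome 4, CBF1 (AT4G25490), CBF2 (AT4G25470) and CBF3 (AT4G25480, listed as DREB1A), and DREB2A (AT5G05410) on chromosome 5. The other members were the neighbouring pair COR15A (AT2G42540) and COR15B (AT2G42530) on chromosome 2, and the neighbouring pair KIN1 (AT5G15960) and KIN2 (AT5G15970) on chromosome 5. The 8 were chosen by name out of 27444 protein-coding genes on chromosomes 1 to 5. A peak was assigned to a gene when its summit lay inside the gene or within 1500 bp of either end.

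The assay was ATAC-seq, in which the Tn5 transposase cuts open chromatin, on nuclei sorted by FACS from Col-0 plants that carry a histone H2B-EGFP nuclear marker. The promoter that drives the marker and the age of the plants were not given in the sources used here. The groups were roots and guard cells of the abf1/2/3/4 quadruple mutant, and seedlings, mesophyll cells, roots and guard cells of the wild type (WT). That mutant lacks ABF1 to ABF4, the basic leucine zipper factors that bind ABA-responsive elements. ABA groups received 50 µM abscisic acid and their controls ethanol, on agar for seedlings and as a spray on the rosettes of mature plants. ABA was given for 4 h to WT seedlings and mesophyll, for 45 min, 2 h and 4 h to WT roots, and for 4 h and 24 h to WT guard cells. The mutant received it for 45 min and 2 h to roots and for 4 h to guard cells. The labels of the 2 h mutant root samples disagree, since their titles give 2 h and their treatment time gives 4 h. Each tissue and genotype had 1 control group, labelled 4 h, which therefore also stood against the 45 min, 2 h and 24 h groups. WT guard cells came in addition from plants kept for 4 h at 100 ppm or at 1000 ppm CO2. The 53 samples made 18 groups, 3 of them with 2 samples, 13 with 3 and 2 with 4.

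CBF1, CBF2 and CBF3 encode AP2/ERF transcription factors that cold induces within a short time and that bind the C-repeat/dehydration-responsive element (CRT/DRE) of their target genes. DREB2A is a relative that binds the same element, is induced by drought and heat, and is held low by protein degradation in unstressed plants. COR15A and COR15B encode hydrophilic proteins of the chloroplast stroma that protect membranes during freezing, and KIN1 and KIN2 encode small hydrophilic proteins that both cold and ABA induce.

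Each group was represented by a single peak list, so no value below has a replicate error and no test across samples could be made. Every difference is a difference between 2 lists. In any of the lists, a site opened in fewer cells and a site opened less in each cell cannot be told apart. The lists held 15345 peaks in ABA-treated mesophyll to 27514 peaks in WT roots after 2 h of ABA. Peaks were ranked within each list by the authors' −log10 p, with rank 1 the strongest. The fixed markers followed the labels for guard cells, where all 5 markers (MYB60, FAMA, KAT1, SLAC1, TGG1) had a peak in each of the 7 guard cell lists, against 1 to 3 in the other lists. Of 7 root markers, 6 or 7 had a peak in the root lists, 4 or 5 in the seedling lists, 3 in the guard cell lists and 2 in the mesophyll lists. The 4 mesophyll markers did not separate the tissues, with 3 or 4 of them holding a peak in every list.

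Peaks were common at the members. Between 6 and 8 of the 8 had a summit in their window in every list, against 55.2% to 75.8% of all protein-coding genes. All 8 had one in ABA-treated seedlings, in both mesophyll lists, in WT roots after 4 h of ABA and in 6 of the 7 guard cell lists. The CBF genes, DREB2A and KIN1 had one in all 18 lists. COR15A had none in 7 lists and COR15B none in 3. KIN2 had none in 1 list, WT guard cells after 4 h of ABA, where a single peak with its summit in KIN1 spanned both KIN genes.

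Summits that lay within 150 bp of each other in different lists were joined into 1 site, which gave 28 sites: 12 at the CBF cluster, 5 at DREB2A, 6 at COR15 and 5 at KIN. A peak of any list covered a site if it spanned it, and 9 sites were covered in all 18 lists. Of the 28, 5 lay in the windows of 2 neighbouring members, and these members then share the same peak. Because a rank depends on the length of its list, the peaks found in both lists of a comparison were also ranked among themselves. The move of a peak in that order is given in percentage points of the shared peaks, positive when the peak stood nearer the top of the first-named list. A peak cannot move up by more points than its place in the other list leaves above it. The 5th and 95th percentile of the moves of all shared peaks are given beside it as a description, not as a test. The gene table holds no strand, so positions are given relative to the lower-coordinate and the higher-coordinate end of a gene. Peak coordinates are those of the files, whose build is TAIR10 per the submitters' processing notes.

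**Figure D1:**
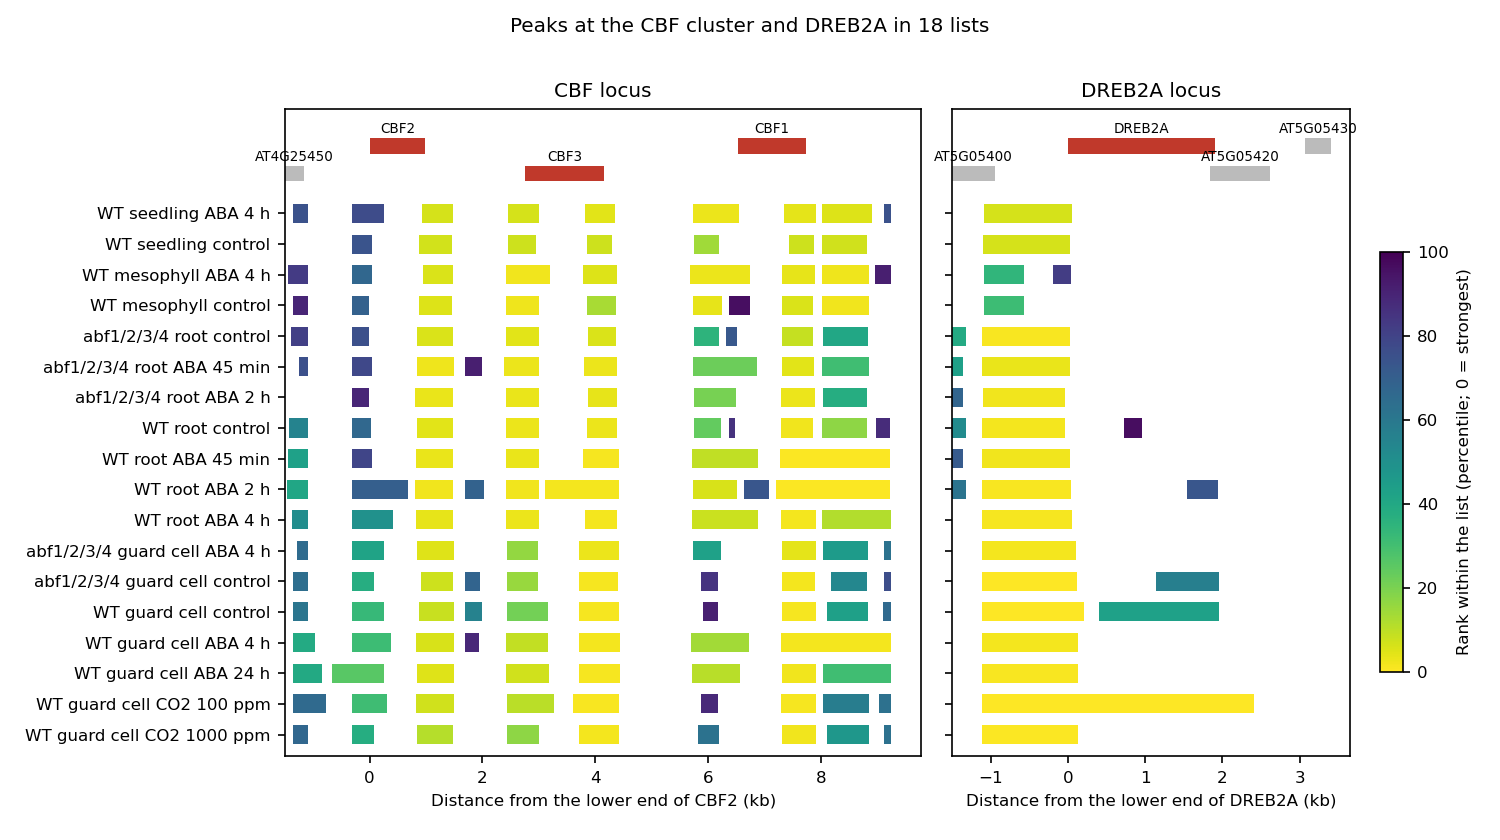
Peaks of the 18 lists (rows) at the CBF cluster and at DREB2A, plotted as the distance in kb from the lower-coordinate end of CBF2 or DREB2A; the colour gives the rank percentile within the list, from yellow for the strongest to dark purple, with member genes in red and other genes in grey. Peaks between CBF3 and CBF1 were lighter in the ABA lists of WT guard cells than in their control and CO2 lists, and the peak below DREB2A was strong in every list outside mesophyll.

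The CBF cluster held strong peaks in every tissue and condition. Inside CBF3, the gene of one of the 3 cold-induced activators, a peak ranked between 213 and 2098 in every list. A second peak inside CBF3 ranked between 347 and 4423. A peak 183 bp beyond the higher end of CBF2 ranked between 470 and 2155. Inside CBF1, the peak near its higher end ranked between 94 and 1694. These sites were open in control roots, mesophyll, guard cells and seedlings alike. By contrast, the site 218 bp beyond the lower end of CBF2 was covered in all 18 lists but ranked only between 5021 and 19316.

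One CBF site set the guard cell lists apart. It lay 476 bp beyond the lower end of CBF1, between CBF3 and CBF1, and was covered in all 18 lists. In WT guard cells it ranked 19080 of 20954 in the control (chr4:13021159-13021435, 277 bp, −log10 p 4.95), 2451 of 17891 after 4 h of ABA (1041 bp, −log10 p 12.16) and 2058 of 19239 after 24 h of ABA (846 bp, −log10 p 17.82). The peak was thus among the weakest of the control list and in the upper part of both ABA lists. Among the peaks shared with the control list it stood 81.7 points higher at 4 h, where the 5th to 95th percentile of all shared peaks was −28.0 to 33.7 points. At 24 h it stood 84.5 points higher, against a range of −25.4 to 26.6 points.

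The same site differed less between the abf1/2/3/4 guard cell lists. It ranked 8006 of 18584 with ABA for 4 h (500 bp), against 16889 of 19864 in the mutant control (318 bp). This was a move of 44.3 points, with a range of −26.1 to 25.9 points over all shared peaks. The 2 untreated lists had the site at similar places, with a move of 9.3 points in the mutant over the WT control and a range of −15.2 to 13.4. Whether the move under ABA differs between the genotypes could not be tested, since each has 1 list per condition. With CO2 the site ranked 16776 of 18999 at 100 ppm and 12025 of 19341 at 1000 ppm, a move of −25.3 points (range −22.1 to 22.8).

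In roots and in the other tissues the site was stronger in the controls already. In WT roots its rank was 6245 in the control, 1908 after 45 min, 1646 after 2 h and 2005 after 4 h of ABA. The move was 22.8 points at 45 min (95th percentile 19.4), 19.6 at 2 h (22.7) and 19.6 at 4 h (26.4), so that it passed the range of all peaks at 45 min. Roots of abf1/2/3/4 had it at rank 6835 in the control, 4083 after 45 min and 3645 after 2 h. There the move was 15.8 points at 45 min (95th percentile 15.5) and 19.6 points at 2 h (18.2). The site therefore stood higher with ABA in roots of both genotypes. In seedlings the site ranked 511 with ABA and 2375 in the control. In mesophyll it ranked 443 with ABA, as a peak of 1077 bp, and 611 in the control, as a peak of 520 bp. The peak was wider with ABA than in the control in all 10 ABA comparisons, by 1.57 to 3.76 times. In mesophyll and in roots of both genotypes the control held another, weaker peak nearer CBF1, and the ABA peak ran over it too. In WT roots at 2 h (1.61) and abf1/2/3/4 guard cells (1.57) the ratio lay under the 95th percentile of all shared peaks (1.98 and 1.83), and in the other 8 above it.

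The other flank of CBF1 also differed. The site 682 bp beyond its higher end was a peak of its own in most lists, but was joined with the peak inside CBF1 in 3 ABA lists of the WT. The joined peak measured 1953 bp in roots after 45 min (chr4:13022524-13024476, rank 94 of 19885), 2025 bp in roots after 2 h (rank 156 of 27514) and 2129 bp in guard cells after 4 h (chr4:13022552-13024680, rank 320 of 17891). In WT controls the flanking peak measured 794 bp at rank 4326 in roots and 732 bp at rank 9088 in guard cells. Each joined peak had its summit inside CBF1, so its rank is not that of a summit at the flank. The peak inside CBF1 ranked 592 in the WT root control and 304 in the WT guard cell control. In guard cells the joined peak at rank 320 thus stood no higher than the control peak inside CBF1. The flanking peak was a separate peak in all 5 abf1/2/3/4 lists, with ranks of 5554 to 10708.

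DREB2A, the drought- and heat-linked activator, had its main site 826 bp beyond its lower end. This site was covered in all 18 lists. In guard cells it was among the strongest peaks of the genome. In WT guard cells it ranked 46 of 20954 in the control (1326 bp, −log10 p 29.15), 286 of 17891 after 4 h of ABA and 179 of 19239 after 24 h of ABA. The abf1/2/3/4 guard cells had it at rank 334 with ABA and 58 in the control. In all 3 comparisons the peak stood lower with ABA: among the peaks shared with the control list its place was 285 with ABA and 45 in the control at 4 h, and 179 with ABA and 46 in the control at 24 h. In the mutant it was 333 with ABA and 58 in the control. For a peak so near the top of its list, moves in percentage points are small whatever its change in rank. In abf1/2/3/4 roots the ranks were 195 in the control, 603 at 45 min and 362 at 2 h, and in WT roots 413 in the control, 427 at 45 min, 221 at 2 h and 330 at 4 h. Mesophyll stood apart, with rank 5330 with ABA and 5001 in the control, and with peaks of 513 and 515 bp. The seedling lists lay between, with rank 1078 with ABA and 1059 in the control.

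The body of DREB2A differed between guard cell lists. A peak of 1554 bp inside the gene (chr5:1602611-1604164, rank 9039 of 20954) was present in the WT guard cell control and absent after 4 h and after 24 h of ABA. A narrower peak of 817 bp (rank 11359 of 19864) was present in the abf1/2/3/4 guard cell control and likewise absent with ABA. At 100 ppm CO2 the lower-end site and the gene body formed a single peak of 3527 bp (chr5:1601090-1604616, rank 50 of 18999, the peak of width rank 39 in its list). At 1000 ppm the lower-end peak measured 1243 bp at rank 133 of 19341, and no other peak lay in the gene. A peak over the gene body was therefore listed in both untreated genotypes and at low CO2, and in none of the 3 ABA lists nor at high CO2. The higher end of this peak reaches AT5G05420, which overlaps the end of DREB2A, so its reads cannot be assigned to 1 of the 2 genes.

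**Figure D2:**
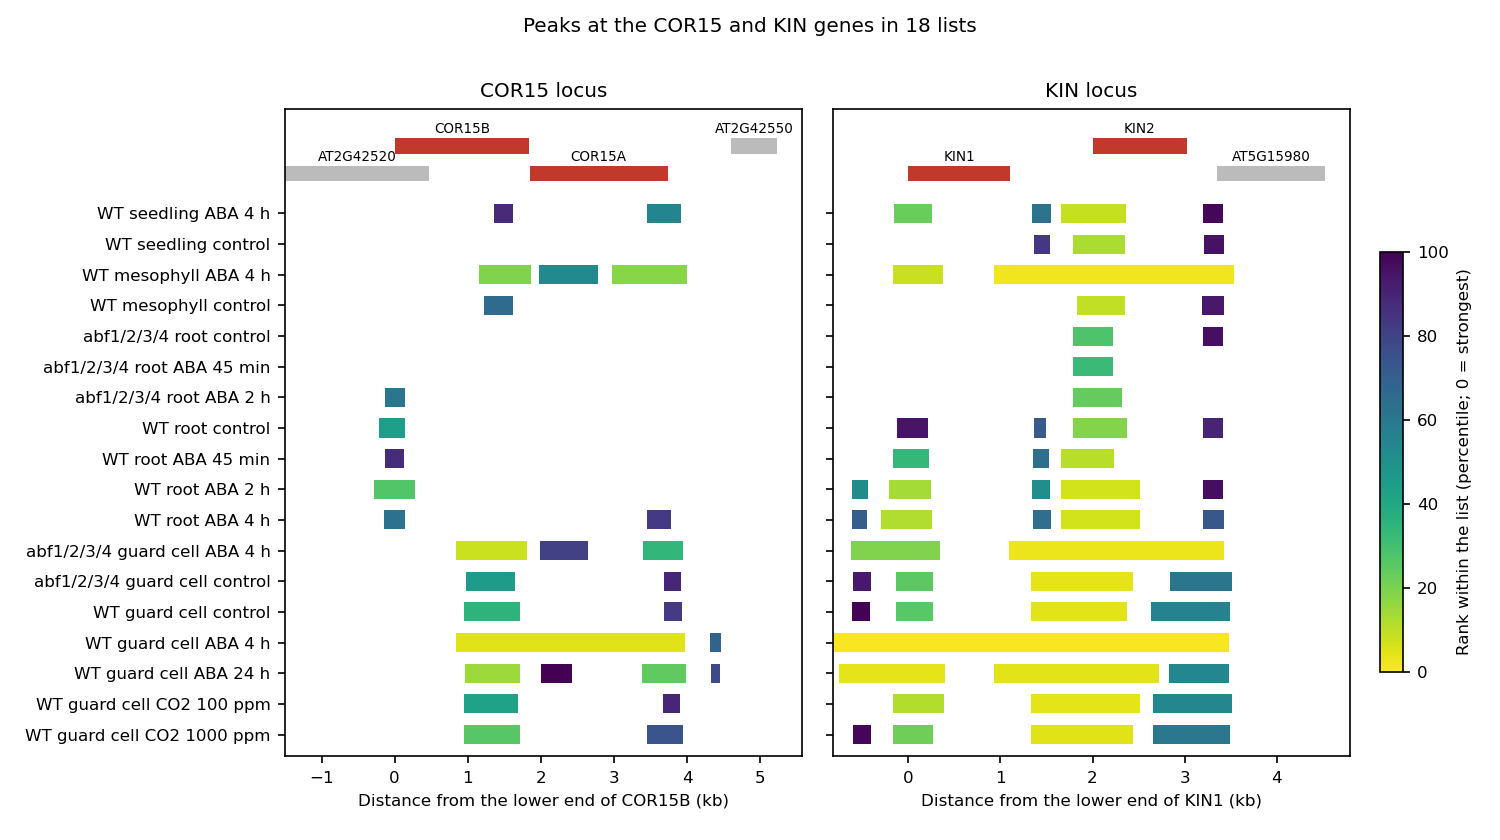
Peaks of the 18 lists (rows) at the COR15 and KIN genes, plotted as the distance in kb from the lower-coordinate end of COR15B or KIN1, with colour as rank percentile (yellow for the strongest) and member genes in red. In WT guard cells after 4 h of ABA 1 peak of 3133 bp spanned most of COR15B and COR15A and 1 peak of 4300 bp spanned KIN1 and KIN2. The abf1/2/3/4 root lists had no peak inside KIN1.

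COR15B and COR15A, the chloroplast protectants, showed the clearest division between tissues. The site inside COR15B was covered in 10 of the 18 lists: all 7 guard cell lists, both mesophyll lists and the seedling ABA list. None of the 7 root lists had a peak there. In WT guard cells its rank was 7387 of 20954 in the control (755 bp), 897 of 17891 after 4 h and 2829 of 19239 after 24 h of ABA (763 bp). At 4 h the peak ran without a break over most of both genes (chr2:17709433-17712565, 3133 bp, −log10 p 15.11), a width of rank 49 in its list. The move over the control was 39.2 points at 4 h (95th percentile 33.7) and 25.4 points at 24 h (26.6).

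The abf1/2/3/4 guard cells had the COR15B peak at rank 1499 with ABA (969 bp) and at rank 9039 in the control (674 bp), a move of 43.0 points against a 95th percentile of 25.9. The difference between ABA and control at this site was thus also present without ABF1 to ABF4. In mesophyll the rank was 2899 with ABA (712 bp) and 10450 in the control (407 bp), a move of 52.9 points (95th percentile 28.0). In seedlings a peak of 266 bp at rank 14866 of 16891 was listed with ABA, and none in the control. At 100 ppm CO2 the rank was 8073 and at 1000 ppm 5114, a move of −18.2 points, inside the range of −22.1 to 22.8.

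A site 39 bp beyond the higher end of COR15A differed in the same direction. The peak over it in WT guard cells ranked 17318 in the control (245 bp), was part of the 3133 bp peak at 4 h, and ranked 4683 at 24 h of ABA (611 bp, a move of 64.4 points). Guard cells of abf1/2/3/4 had it at rank 6379 with ABA (550 bp) and at rank 17760 in the control (232 bp), a move of 56.8 points. In mesophyll a peak of 1039 bp at rank 2744 (chr2:17711561-17712599) was present with ABA and none in the control. In seedlings a peak of 467 bp at rank 9223 was present with ABA and none in the control. The WT root list at 4 h of ABA was the only root list with a peak there, at rank 21376 of 25604. The neighbouring site inside COR15A was covered in 7 lists, of which 6 were ABA lists and the other was the 1000 ppm CO2 list.

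The site at the lower end of COR15B was seen in roots alone: it had a peak in 5 of the 7 root lists and in none of the other 11. It ranked 11447 of 25753 in the WT root control, 17449 of 19885 at 45 min, 7525 of 27514 at 2 h and 15998 of 25604 at 4 h of ABA. These ranks had no common direction, with moves of −28.9, 16.2 and −19.4 points. Of the abf1/2/3/4 root lists, only that at 2 h of ABA had the peak, at rank 10800 of 17705. This site also lies in AT2G42520, which overlaps COR15B in the gene table.

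KIN1 and KIN2 encode the cold- and ABA-induced hydrophilic proteins. The site inside KIN1 was covered in 13 of the 18 lists, and the 5 without it were the seedling control, the mesophyll control and all 3 abf1/2/3/4 root lists. In seedlings the peak had rank 3864 of 16891 with ABA (416 bp, −log10 p 7.3), and the control had none. In mesophyll it had rank 1271 of 15345 with ABA (541 bp, −log10 p 12.34), and the control had none. These were the highest-ranked gained peaks at any member in the 2 comparisons.

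In roots the KIN1 site separated the genotypes. None of the abf1/2/3/4 root lists covered it, in the control, at 45 min or at 2 h of ABA. The KIN1 peak of WT roots ranked 24404 of 25753 in the control (338 bp, −log10 p 4.53), 6623 of 19885 at 45 min, 3744 of 27514 at 2 h and 3026 of 25604 at 4 h of ABA (chr5:5209427-5209974, 548 bp). It stood 65.1 points higher than in the WT control at 45 min (95th percentile of all shared peaks 19.4), 79.5 points at 2 h (22.7) and 83.8 points at 4 h (26.4). The 3 ABA lists share the 1 control list. The mutant root lists hold 17705 to 19277 peaks, more than the rank of the WT peak in any of the 3 ABA lists, but fewer than its rank in the WT control. The mutant has no list at 4 h, and the genotype difference itself could not be tested.

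Guard cells differed from roots in this. With ABA for 4 h the abf1/2/3/4 guard cells had the KIN1 peak at rank 3540 of 18584 (975 bp), and their control had it at rank 5027 of 19864 (396 bp), a move of 8.3 points, inside the range of −26.1 to 25.9. The WT guard cell rank was 5428 of 20954 in the control (401 bp), 196 of 17891 at 4 h and 792 of 19239 at 24 h of ABA (1149 bp). The move at 24 h was 26.1 points, just under the 95th percentile of 26.6. At 100 ppm CO2 the rank was 2232 and at 1000 ppm 4290, a move of 11.3 points and inside the range.

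At KIN2 a peak covered the same site in all 18 lists. It measured in WT guard cells 1044 bp in the control (rank 939), 4300 bp at 4 h of ABA (chr5:5208902-5213201, rank 196) and 1792 bp at 24 h (rank 859). The 4300 bp peak had its summit in KIN1, so its rank of 196 is not that of a summit at KIN2. This peak had the width rank 12 of 17891 in its list, where the 99th percentile of widths was 2128 bp. The abf1/2/3/4 guard cell peak measured 2336 bp with ABA (rank 564) and 1101 bp in the control (rank 819). In mesophyll it measured 2609 bp with ABA (chr5:5210649-5213257, rank 354) and 521 bp in the control (rank 1538), a ratio of 5.01, where the 95th percentile of the ratio over all shared peaks was 1.72. The KIN2 peak was therefore wider with ABA than in the control in guard cells of both genotypes and in mesophyll. At 4 h each of these ABA peaks also ran over ground where its control list held a separate peak nearer AT5G15980. In WT guard cells it ran over separate control peaks at KIN1 too. These widths thus set a joined peak against 1 of the control peaks, and each joined peak reaches into AT5G15980.

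Roots and seedlings had narrower KIN2 peaks. The abf1/2/3/4 root peak ranked 5396 in the control, 5857 at 45 min and 4199 at 2 h of ABA, with widths of 433, 432 and 529 bp. The WT root peak ranked 4746 in the control, 2142 at 45 min, 1865 at 2 h and 1758 at 4 h of ABA, with widths of 584, 569, 853 and 852 bp. The moves were −2.7 and 7.6 points in the mutant at 45 min and 2 h, and 13.7, 12.2 and 13.8 points in the WT at 45 min, 2 h and 4 h. The WT peak was thus nearer the top in all 3 ABA lists than in the control, while the mutant moves had no common direction. From its place in the WT root control the peak could have moved up by at most 20.3 points at 2 h and 22.1 at 4 h, under the 95th percentiles of 22.7 and 26.4, so these moves cannot be read against that range. In seedlings the peak ranked 1463 with ABA (697 bp) and 2112 in the control (569 bp).

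**Figure D3:**
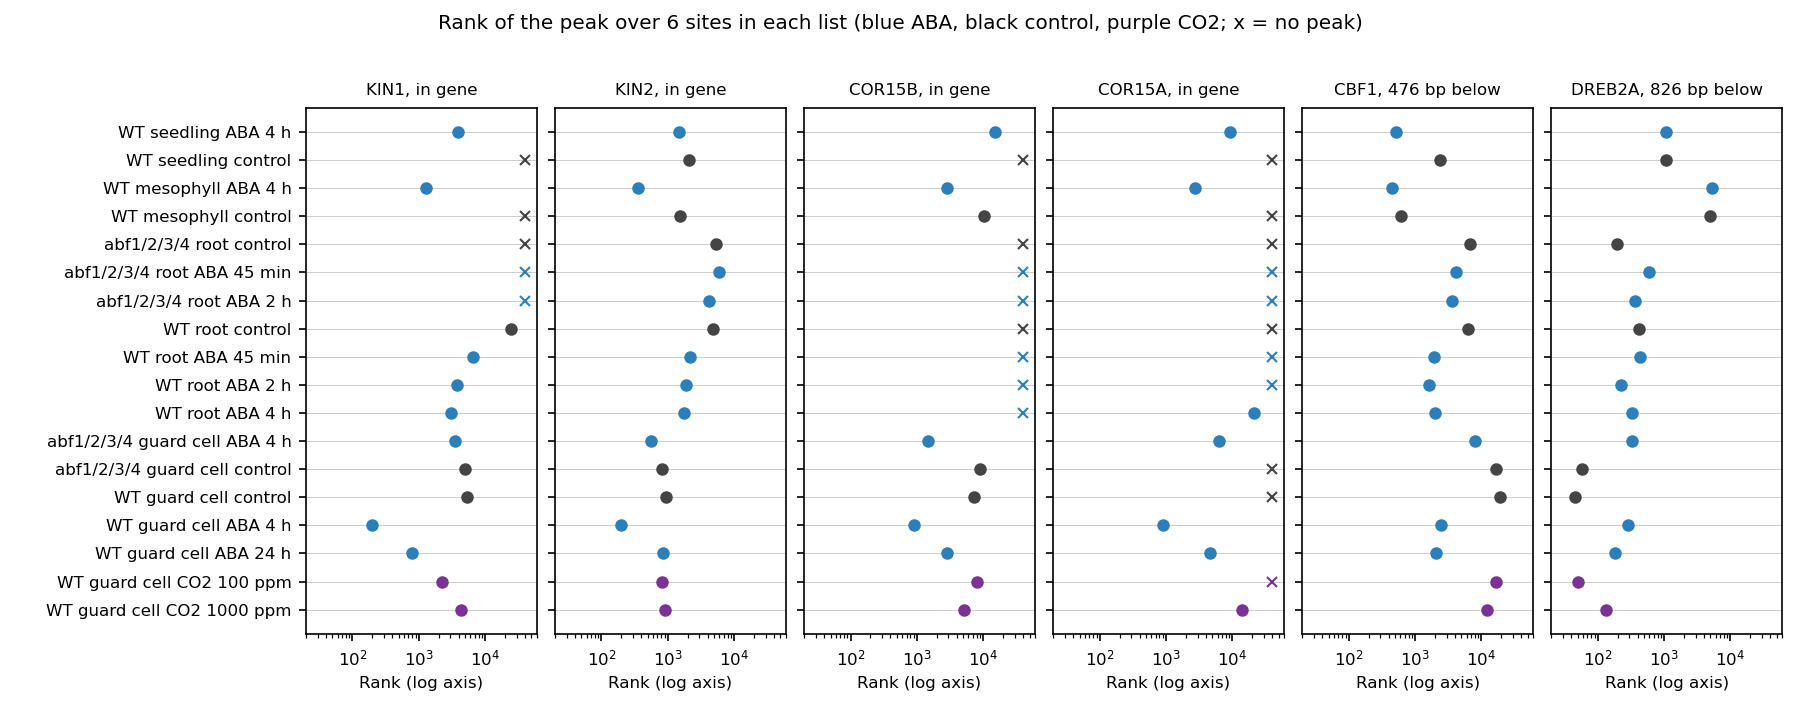
Rank within each of the 18 lists (log axis, rank 1 is the strongest) of the peak over 6 sites, with ABA lists in blue, control lists in black, CO2 lists in purple and a cross where no peak covered the site. The KIN1 site is at ranks 3026 to 6623 in the WT root ABA lists and crossed in all 3 abf1/2/3/4 root lists, and the CBF1 site ranks 19080 in the WT guard cell control against 2451 and 2058 with ABA.

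Presence and absence were next counted per gene. A peak counted as gained when it lay in the first-named list and touched no peak of the other, and as lost in the opposite case, and a gene was called if the summit of such a peak lay in its window. In seedlings 5 members had a gained peak with ABA, namely CBF1, CBF2, COR15A, COR15B and KIN1, where 8.65% of all protein-coding genes had one, and 0 had a lost peak (7.14% of all genes). In mesophyll 5 members had a gained peak, namely CBF1, DREB2A, COR15A, COR15B and KIN1 (7.13% of all genes), and 0 a lost one (10.2%). COR15A, COR15B and KIN1 were in both sets. The gained peak of COR15B was in both cases shared with COR15A. It lay inside COR15B in seedlings (rank 14866 of 16891) and inside COR15A in mesophyll (rank 8095 of 15345). The gained CBF1, CBF2 and DREB2A peaks had ranks of 12607 to 14056 and were 241 to 414 bp wide, so they lay in the weaker part of their lists. The gained CBF2 peak of seedlings lay at the site 1171 bp beyond the lower end of CBF2, inside another gene, ABCB28. The gained CBF1 peaks lay at the site 1444 bp beyond its higher end, near the limit of the window.

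In WT roots the share of all genes called was higher for most counts. At 45 min 0 members had a gained peak (1.49% of all genes) and 2, DREB2A and KIN2, a lost peak (30.0%). At 2 h 5 members had a gained peak, namely CBF1, CBF2, CBF3, DREB2A and KIN1 (19.3%), and 1, DREB2A, a lost peak (9.58%). At 4 h 2 members had a gained peak, COR15A and KIN1 (17.0%), and 1, DREB2A, a lost peak (17.8%). All these gained peaks had ranks of 14212 to 21376, and CBF2 and CBF3 shared theirs. The large move of the KIN1 peak is not among these calls, because the control list already held a weak peak there.

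In WT guard cells 1 member had a gained peak at 4 h, COR15A (6.79% of all genes), and 1 a lost peak, DREB2A (20.7%). With lists of equal length, for which no share of all genes was computed, these counts were 2 and 3. In the same comparison 3 of the 5 guard cell markers (MYB60, KAT1 and TGG1) and 3 of the 4 mesophyll markers (RBCS1A, CAB1 and CA1) had a lost peak, and CA1 also a gained one. The part of this in the members' calls was not tested. At 24 h 0 guard cell markers and 1 mesophyll marker, CAB1, had a lost peak. At 24 h 2 members had a gained peak, COR15A and COR15B (6.02%), and 3 a lost peak, CBF2, CBF3 and DREB2A (15.3%). The gained COR15B peak lay inside COR15A, was called for both genes and had rank 19188 of 19239. The lost CBF peak was 1 weak peak shared by both genes, of 307 bp at rank 11698. With ABA, abf1/2/3/4 guard cells had 2 members with a gained peak, COR15A and COR15B (6.66%), and 3 with a lost peak, CBF2, CBF3 and DREB2A (11.0%). There too the gained peak was 1 peak inside COR15A called for both genes, of rank 14966 of 18584. With CO2, 100 ppm over 1000 ppm, 0 had a gained peak (8.42%) and 1, KIN1, a lost peak (6.99%), of rank 19090 of 19341.

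In abf1/2/3/4 roots 2 members had a gained peak at 45 min, CBF2 and CBF3, which shared it (3.28% of all genes), and 1 a lost peak, KIN2 (9.19%). At 2 h 1 had a gained peak, COR15B (4.85%), and 2 a lost peak, CBF2 and KIN2 (13.2%). The lost CBF2 peak lay inside ABCB28. Between the untreated genotypes, mutant over WT, 0 members had a gained peak in roots (2.07%) and 5 a lost peak, namely CBF1, DREB2A, COR15B, KIN1 and KIN2 (31.1%). With lists of equal length both counts were 2, and among the 10000 highest-ranked peaks both were 0. No share of all genes was computed for these 2 alternatives. The mutant root control list is the shorter one, with 19277 peaks against 25753 in the WT, and the lost peaks had ranks of 11447 to 24915. In guard cells, mutant over WT, 0 members had a gained peak (1.89%) and 0 a lost peak (10.5%).

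**Figure D4:**
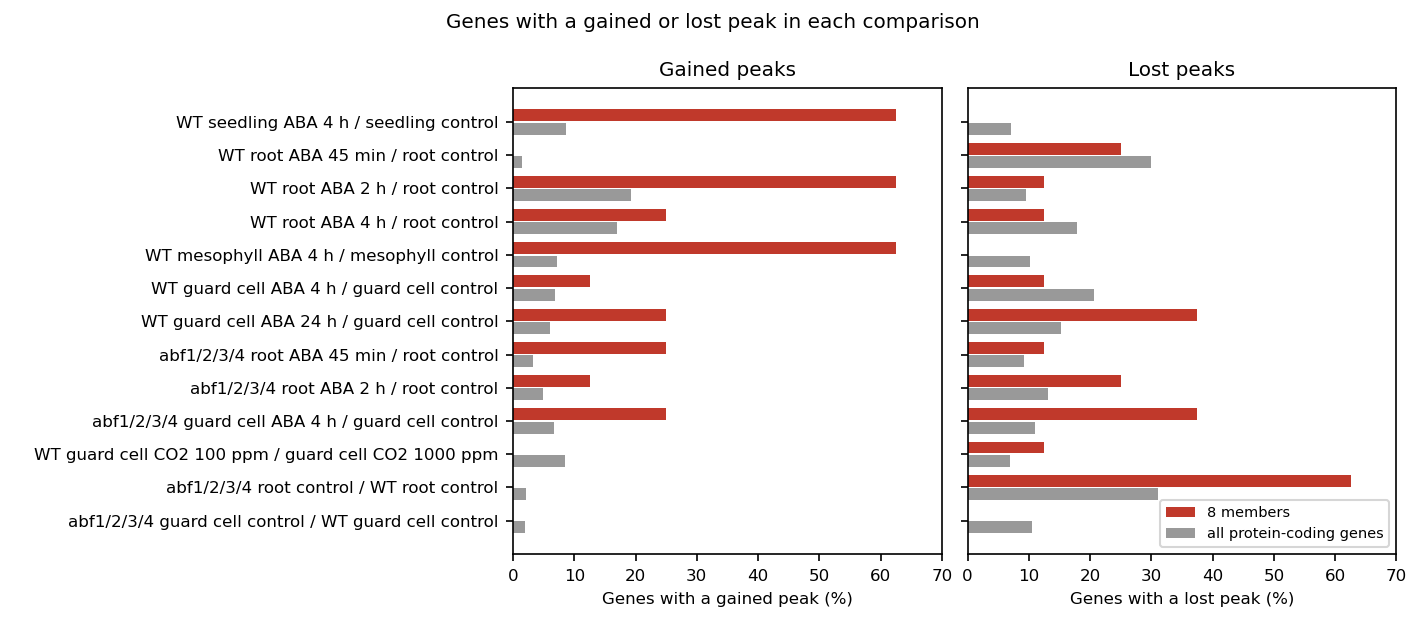
Share of the 8 members (red) and of all 27444 protein-coding genes (grey) with a gained or a lost peak in each comparison, in percent. In seedlings and mesophyll 62.5% of the members had a gained peak against 8.65% and 7.13% of all genes, and in WT roots at 2 h 62.5% against 19.3%. COR15A and COR15B shared a gained peak in seedlings and in mesophyll, and CBF2 and CBF3 shared theirs in WT roots at 2 h. With lists of equal length, for which no share of all genes was computed, 2 members had a gained peak in WT roots at 2 h.

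**Figure D5:**
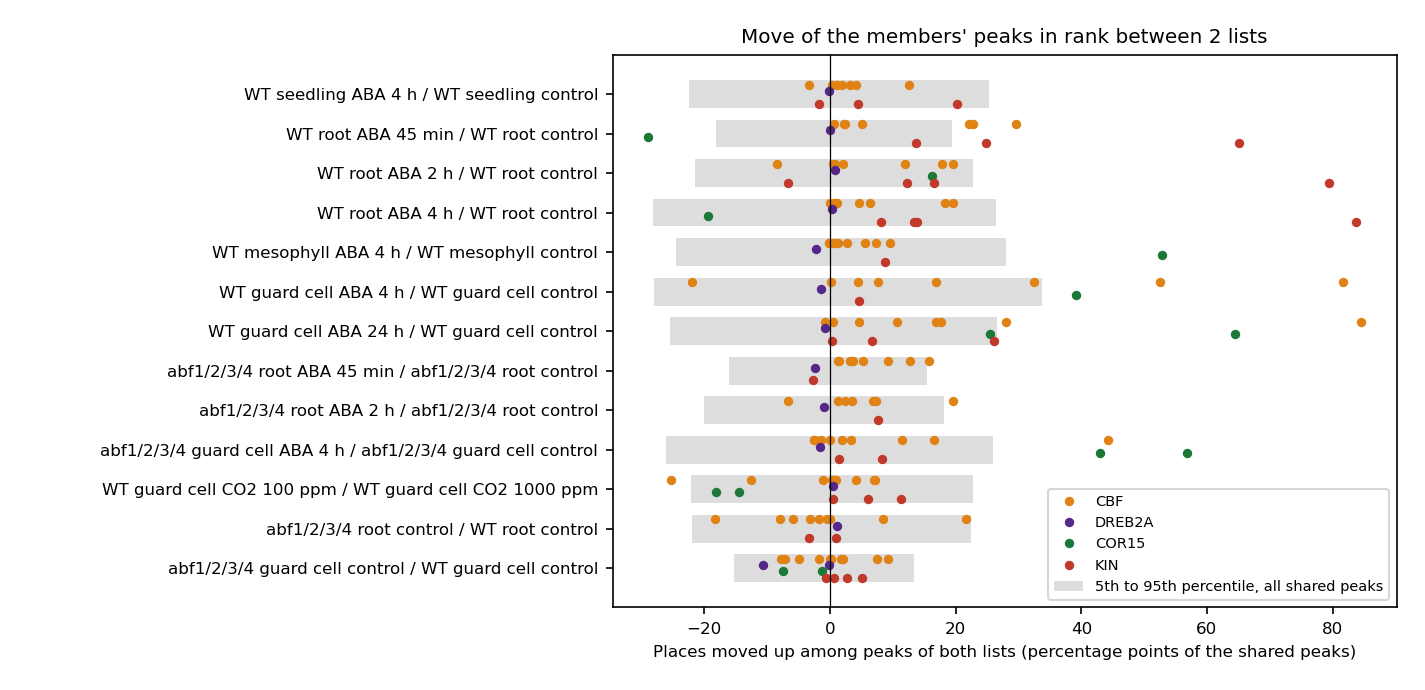
Move of each member peak found in both lists of a comparison, in percentage points of the shared peaks (positive when nearer the top in the first-named list), coloured by locus; the grey bars span the 5th to 95th percentile of all shared peaks. The points farthest to the right are the site below CBF1 in WT guard cells (81.7 and 84.5 points) and the KIN1 site in WT roots (65.1, 79.5 and 83.8 points); a peak near the top of a list, such as that below DREB2A, can move up by few points only.

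Other genes of the pathway were read with the same window. Of 8 further CRT/DRE targets, 7 or 8 had a peak in every list. In mesophyll 4 of the 8 had a gained peak with ABA and 0 a lost one: RD29A, a hydrophilic stress protein, COR413-PM1, a membrane protein, LTI30, a dehydrin, and RAP2.1, a DREB-type repressor. In seedlings 2 had a gained peak, RD29A and the dehydrin gene COR47. For WT guard cells 2 had one, RD29A and RAP2.1, at 4 h and again at 24 h, and 0 had a lost one. The mutant guard cells had 1, RD29A. In WT roots COR413-PM1 was called at 45 min, COR413-PM1 and COR413IM1 at 2 h and RD29A at 4 h, while COR47 had a lost peak at 45 min and 2 h. Of the 8, 0 had a gained peak in abf1/2/3/4 roots at either time, COR47 had a lost peak there at 45 min and 2 h, and RAP2.1 at 2 h. The shares of all genes given above hold for these counts too.

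The 5 relatives of the factors, CBF4, DDF1, DDF2, DREB2B and DREB2C, had no gained peak in seedlings, mesophyll or guard cells, where 6.02% to 8.65% of all genes had one, so that 0 of 5 is near the background. In WT roots CBF4, a drought-responsive CBF, and DREB2C had one at 2 h, and CBF4 and DDF2 at 4 h. DREB2C had a lost peak in seedlings, in mesophyll, at both times in abf1/2/3/4 roots and at all 3 times in WT roots, where the share of all genes was 7.14% to 30.0%. DDF2 had one in WT roots at 45 min, and DDF1 in abf1/2/3/4 guard cells and in WT guard cells at 24 h. Of 9 regulators of CBF or DREB2A, WT roots at 2 h had gained peaks at 4, against 19.3% of all genes: MYB15, a repressor of CBF genes, the zinc finger gene ZAT12, DRIP2, which encodes a ubiquitin ligase for DREB2A, and GRF7, a repressor of DREB2A. At 4 h ICE1, an activator of CBF3, and DRIP2 had one. In mesophyll ICE2 and DRIP1 did, and in WT guard cells GRF7 did at 24 h. Lost peaks were called at ICE1 and ICE2 in seedlings, at MYB15 in abf1/2/3/4 roots at 2 h and in WT roots at 45 min and 2 h, and at DRIP2 in WT guard cells at 4 h. CAMTA3, an activator of CBF2, had one in abf1/2/3/4 guard cells and in WT guard cells at 4 h and 24 h, and GRF7 in abf1/2/3/4 guard cells. In the mutant, gained peaks were called at GRF7 in roots at 45 min and 2 h and at MYB15 in guard cells. With ABA, lost peaks were called at 7.14% of all genes in seedlings, 9.19% to 30.0% in roots and 11.0% to 20.7% in guard cells.

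Genes with a similar profile were sought by the mean absolute difference in the percentile of the best-ranked peak over the 18 lists, with 100 where a gene had no peak. Nearest to KIN1 was the starch synthase gene SS3 (AT1G11720), at a mean difference of 2.31 points, with a range of 1.55 to 30.1 against 1.1 to 32.3 for KIN1. The next were RXW8 and AT1G58525, each at 2.83 points. For KIN2 they were ftsh3 at 6.37, SS3 at 7.56 and AT3G62990 at 8.17 points. In most lists the best-ranked peak in the KIN1 window was the one over the KIN2 site, so the KIN1 profile is largely that of the shared peak. KIN2 counted as 100 in WT guard cells after 4 h of ABA, where the peak that spanned it had its summit in KIN1. CBF1 was nearest to AT5G17980 and TRP1, both at 1.13 points, and to G3Pp4 at 1.21, which was also among the genes nearest to CBF3, at 0.801 points, after AT3G50900 and AT3G50910 at 0.678. CBF2 was nearest to AT5G61350 at 1.41, AT1G45688 at 1.61 and AT5G66530 at 1.67 points. The best peak of CBF1 lay between percentile 0.473 and 8.79, that of CBF2 between 2.2 and 11.1 and that of CBF3 between 1.12 and 7.51 in all lists.

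DREB2A was nearest to HDG1 and AT3G61160, both at 1.75 points, and to AT3G12100 at 1.79. The COR15 genes had no close match: the nearest were FUC95A at 8.27, KCS16 at 9.0 and BNQ2 at 9.0 points for COR15A, and AT5G25230 at 12.3, AT5G58540 at 13.4 and OS9 at 14.4 points for COR15B. COR15A had a median percentile of 60.1 and COR15B of 45.0 over the lists, each ranging from 5.01 to 100. Pairs of neighbouring genes with equal values, such as AT3G50900 and AT3G50910, share a peak.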

How the data were processed

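The deposited files are 1 peak list per group, 18 in all, with 0 columns of per-sample values. How samples were combined, the aligner and the roles of the tools are not given in the sources used here. The submitters' processing notes name TAIR10 and, among other tools, Trim Galore 0.6.5, bedtools 2.30, Genrich and deepTools 3.5.0. Per the file layout, the authors deposited for each peak a −log10 p (uncorrected, since the q column is −1 in every row), an area score, a capped score per base and a summit offset. Area scores were at least 200, so weaker regions are not listed. The −log10 p depends on read depth and sample number. Sample number differs between groups, and depth is unknown. Peaks were compared by their rank within a list, and the −log10 p values printed for different lists are not on a common scale.

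Ranks, windows (1500 bp), overlaps (at least 1 bp for a shared peak), sites and moves were computed with Python 3.11.15, numpy 2.4.6 and pandas 2.3.3, and drawn with matplotlib 3.10.9. In moves, peaks of 2 lists were paired where each was the other's best overlap. The overlap of peaks and the assignment of summits to gene windows were tested on simulated lists. The ranking, sites, pairing and moves were not. Genes came from a RefSeq table of TAIR10.1 without strand or exons, so windows extend from both ends. The build match was checked: of the WT root control summits, 37.4% were no farther than 150 bp from the end of some gene, and only 13.9% and 14.0% once they were shifted by 5 kb to either side. No sequence was used, so the planned motif search was not run. The members and gene lists were chosen with earlier results of these data known. Sites and moves were added after the lists were seen. Named genes are the 8 members, pathway genes with a gained or lost peak in a WT ABA comparison, and the 3 genes nearest to each member in profile, leaving out genes within 10 kb. Alternatives were the 10000 highest-ranked peaks, lists of equal length (15345 peaks), an overlap of 50%, a window of 500 bp, and any base of a peak in the window.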

Additional observations from a re-analysis of the deposited data

Results flagged for a closer look

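Calls of opposite direction were looked for among 13 pairs of comparisons that share a tissue, a genotype or a time, counting a gained peak as 1 and a lost peak as −1, and 3 were found. CBF2 had a gained peak in WT roots after 2 h of ABA (rank 19002 of 27514) and a lost peak in abf1/2/3/4 roots after 2 h (rank 15657 of 19277), a difference of 2 in this count. The 2 peaks lie on different sides of CBF2, and the lost one lies inside another gene, ABCB28. DREB2A had a gained peak in ABA-treated mesophyll (241 bp, rank 12607 of 15345) and a lost peak in WT guard cells after 4 h of ABA (1554 bp, rank 9039 of 20954), a difference of 2. It also had a lost peak in WT roots after 4 h of ABA (233 bp, rank 24915 of 25753), again a difference of 2 from mesophyll. These differences were not tested, since each group has 1 list.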

How the results depend on the processing

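No paired analysis was possible because each group has 1 list and no values per sample, and for the same reason no replicate could be left out. The number of members with a peak stayed within 1.5 times its value in all lists under every alternative run. Counts of gained and lost peaks did not. The share of all genes was computed only for the setting used above, so the alternative counts below have no background beside them. An overlap of 50% moved none of the 26 counts, and neither did counting any base in the window, an alternative chosen after seeing the data.

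With the 10000 highest-ranked peaks set against the whole other list, the gained count was 2 in seedlings and 3 in mesophyll. It was 0 in WT roots at 2 h and 4 h, WT guard cells at 4 h and 24 h, abf1/2/3/4 roots at 45 min and 2 h and abf1/2/3/4 guard cells. The lost count was 1 in WT guard cells at 24 h, and 0 in WT roots at all 3 times, abf1/2/3/4 roots at both times, abf1/2/3/4 guard cells, 100 ppm over 1000 ppm and the mutant root control over WT.

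With lists of equal length, the gained and lost counts were 2 and 1 in WT roots at 45 min, 2 and 0 at 2 h, 2 and 3 in WT guard cells at 4 h, and 1 and 0 in abf1/2/3/4 roots at 45 min. The lost count was 1 in abf1/2/3/4 roots at 2 h and 2 at 100 ppm over 1000 ppm. For the mutant root control over WT both counts were 2.

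With a window of 500 bp, the gained count was 3 in seedlings, 2 in WT roots at 2 h, 1 at 4 h, and 0 in WT guard cells at 4 h and abf1/2/3/4 roots at 45 min. The lost count was 1 in WT guard cells at 24 h, abf1/2/3/4 roots at 2 h and abf1/2/3/4 guard cells, and 3 in the mutant root control over WT. The gained calls in seedlings and mesophyll thus include some among the 10000 highest-ranked peaks, while those in roots and guard cells do not. This fixed rank takes a larger share of a shorter list. As a share of its list, the KIN1 peak gained in WT roots at 2 h (percentile 51.7) stood above the COR15A peak of rank 9223 in seedlings (54.6). The KIN1 peaks gained in seedlings (22.9) and mesophyll (8.28) stood higher than both. The part of list length in this contrast was not tested.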
